A study of Mus musculus with 4 samples.

Results

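Macrophages are the phagocytes of the vessel wall, and the barcodes described here are those that carried macrophage RNA in libraries sorted for smooth muscle cells (SMCs) of the mouse aorta. A member is a barcode with at least 300 detected genes, at most 10% of its unique molecular identifiers (UMIs, counted transcripts) from mitochondrial genes, and at least 10 UMIs of C1qa, C1qb and C1qc together. Of 29930 barcodes, 26558 passed the first 2 criteria and 148 were members. Root held 96 of these and Asc-RFP held 50, while both libraries sorted for GFP, Asc-GFP and Arch-GFP, held 1 each. The members were chosen by their C1q UMIs, so their difference from other barcodes in these and other genes of the same cells is a description and was given no test.

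All 4 libraries came from Wnt1-Cre2 mice carrying the mT/mG reporter, at 12 weeks of age. In mT/mG mice every cell makes tdTomato until Cre removes it and switches on eGFP, and Wnt1-driven Cre acts in the neural crest lineage. Viable single cells positive for ITGA8, an integrin of SMCs, were sorted, from the aortic root (Root), from the ascending aorta by GFP (Asc-GFP) or RFP (Asc-RFP), and from the arch by GFP (Arch-GFP). The label of the Root library names no reporter. Each group is 1 library, so segment, reporter sort and library cannot be told apart, and the sources used here do not state how many mice were used or of which sex.

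Tissue macrophages of the aorta descend from blood-forming precursors rather than from the neural crest, and they clear debris, present antigen and secrete chemokines and complement. C1qa, C1qb and C1qc encode the chains of complement C1q, the recognition molecule of the classical pathway. Adventitial macrophages are commonly divided into resident cells carrying LYVE1, FOLR2 and TIMD4, cells rich in MHC class II, and CCR2-bearing cells that are replaced from blood monocytes.

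The 3 C1q genes lie side by side on chromosome 4 (mm10, minus strand), C1qa at chr4:136895917-136898803, C1qc at chr4:136889804-136893065 and C1qb at chr4:136880129-136886187. Because these genes define the members, the promoters of C1qb and C1qc are shown (RefSeq, GRCm38.p6, 250 bases before to 50 after the start site, in the direction of transcription, C1qb at chr4:136886151-136886450 and C1qc at chr4:136892865-136893164). Capitals mark the letters GAGGAA, the box read by the myeloid factor PU.1, or its reverse complement TTCCTC.
C1qb: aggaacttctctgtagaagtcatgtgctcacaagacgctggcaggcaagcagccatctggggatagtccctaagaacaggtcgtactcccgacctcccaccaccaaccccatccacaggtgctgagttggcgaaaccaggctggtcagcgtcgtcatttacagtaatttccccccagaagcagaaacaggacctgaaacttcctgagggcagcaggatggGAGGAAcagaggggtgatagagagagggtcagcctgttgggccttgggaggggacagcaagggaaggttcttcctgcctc
C1qc: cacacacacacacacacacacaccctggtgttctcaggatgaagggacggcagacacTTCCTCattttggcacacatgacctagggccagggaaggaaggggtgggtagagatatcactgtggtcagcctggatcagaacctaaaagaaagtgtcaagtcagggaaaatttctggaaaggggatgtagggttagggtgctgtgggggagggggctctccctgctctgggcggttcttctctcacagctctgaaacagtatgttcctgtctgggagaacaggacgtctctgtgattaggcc
The C1qb match starts at position -30 from the start site and the C1qc match, on the opposite strand, at -193. Of 32851 promoters of this length, 28.3% held these letters on either strand. A match is a description of the letters and not a bound site. Spi1, which encodes PU.1, was itself detected in 70 of 96 Root and 26 of 50 Asc-RFP members.

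Members made up 2.78% of the passing barcodes of Root (exact 95% interval 2.26 to 3.39%) and 0.839% of those of Asc-RFP (0.623 to 1.10%). The GFP-sorted libraries held 1 of 7732 in Asc-GFP (0.0129%, 0.000327 to 0.0720%) and 1 of 9415 in Arch-GFP (0.0106%, 0.000269 to 0.0592%). All intervals here cover counting error only. Members had a median of 8420 UMIs in Root and 3066 in Asc-RFP, against 13323 and 13618 in the remaining barcodes, which are the other barcodes of the same library with at least 1000 genes (2873 in Root, 3993 in Asc-RFP). Library totals were 41479646 UMIs for Root, 57063251 for Asc-RFP, 87500240 for Asc-GFP and 104691850 for Arch-GFP. The libraries shared 107 cell barcodes in all, none of them a member (0 of 107).

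Just outside the rule, with 5 to 9 C1q UMIs, lay 20 barcodes in Root and 31 in Asc-RFP, and just inside it, with 10 to 14, lay 23 and 11. The 12 SMC markers (Acta2, Myh11, Tagln, Cnn1, Tpm2, Myl9, Smtn, Lmod1, Des, Actg2, Mylk and Itga8) held a median of 6.75% of the UMIs inside and 5.50% outside in Root, and 4.21% inside and 4.69% outside in Asc-RFP. Near its threshold the rule therefore took barcodes rich in muscle RNA. C1q RNA was also present in other barcodes. At least 1 C1q UMI was found in 8.91% of the remaining barcodes of Root and 4.13% of those of Asc-RFP, against 0.187% in Asc-GFP and 0.0374% in Arch-GFP, at median depths of 13323, 13618, 12974 and 12626 UMIs.

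The members were of 2 kinds by their muscle RNA. In 53 Root, 23 Asc-RFP and the single Asc-GFP member, 77 in all, the SMC markers held at most 1% of the UMIs. In 43 Root, 27 Asc-RFP and the single Arch-GFP member, 71 in all, they held more. The limit of 1% was set after the values were seen. The nearest values under and over it were 0.892% and 1.07% in Root and 0.651% and 1.76% in Asc-RFP. At or under 0.5% lay 51 Root and 22 Asc-RFP members, and above 5% lay 29 and 3. Members at or under the limit are called macrophages low in muscle RNA below.

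**Figure D1:**
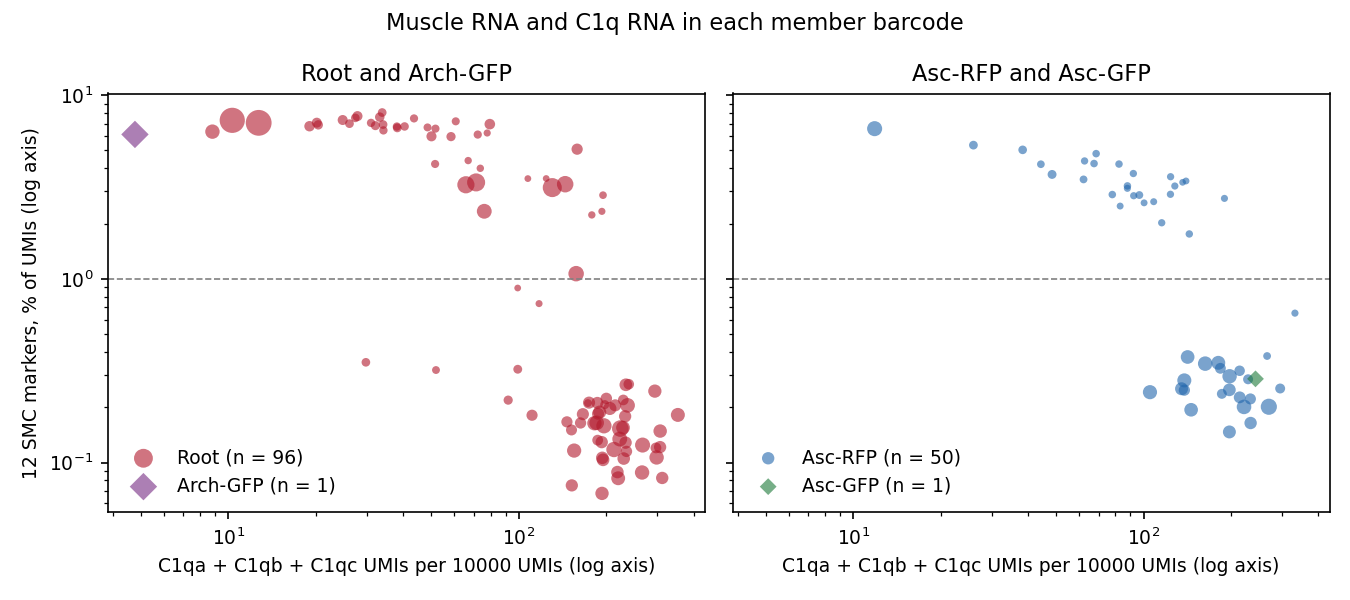
Each point is a member barcode, sized by its UMIs. The horizontal log axis gives its C1q UMIs per 10000, the vertical log axis the percent of its UMIs from 12 SMC markers, and the dashed line 1%. Root (96, red) and Arch-GFP (1, purple diamond) are on the left and Asc-RFP (50, blue) and Asc-GFP (1, green diamond) on the right. In Root, 53 points lie under the line and 43 over it, and in Asc-RFP 23 and 27.

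The 2 kinds differed in depth and in C1q as well. Macrophages low in muscle RNA had a median of 10832 UMIs in Root and 11649 in Asc-RFP, against 3841 and 1756 in the members over 1%. C1q UMIs per 10000 had medians of 198 and 197 in the macrophages low in muscle RNA, against 50.03 and 88.0 over 1%. The 12 SMC markers held a median of 0.164% and 0.252% of the UMIs, close to 0.141% and 0.249% in the 39 Root and 14 Asc-RFP barcodes with at least 10 UMIs of endothelial markers. Members over 1% had medians of 6.57% and 3.35%, beside 5.28% and 6.06% in the remaining barcodes. Results below are therefore given mostly for the macrophages low in muscle RNA, and for all members where so stated. Where the values of all members are not given, they can differ.

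Acta2, Myh11 and Tagln, the contractile genes of SMCs, together held 1.52% of the UMIs of all Root members and 0.840% of those of Asc-RFP, against 3.73% and 4.33% in the remaining barcodes. The median over member barcodes had the reverse order, 0.168% in Root and 1.64% in Asc-RFP. In the macrophages low in muscle RNA the share was 0.0996% in Root (0.0917 to 0.108%) and 0.172% in Asc-RFP (0.156 to 0.189%), and over 1% it was 3.58% and 3.28%. A single source of free RNA would keep its genes in 1 ratio. The UMIs of Acta2 per UMI of Myh11 were 5.27 in the Root macrophages low in muscle RNA, 8.80 in the Root members over 1%, 3.62 in endothelial barcodes and 3.76 in the remaining ones. In Asc-RFP the same ratios were 6.58, 5.20, 11.2 and 4.77. In Root the members over 1% therefore had the most Acta2 per Myh11 of the 4 sets, and whether their muscle RNA was free RNA, a second cell or their own was not tested.

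Itga8, the gene of the protein used in the sort, had 34.7 CPM (UMIs of a gene per 1000000 UMIs summed over a set) in the Root macrophages low in muscle RNA and 63.5 in those of Asc-RFP, against 1296 and 1480.2 CPM in the remaining barcodes. It was detected in 18 of 53 and 10 of 23 of them. Itga8 is itself among the 12 markers that drew the 1% limit. Of 16 integrin genes, 3 of 11 measured were at least 2-fold higher in the Root macrophages low in muscle RNA and 3 of 12 in those of Asc-RFP. Lower were 7 and 9. Of all genes, 27.6% and 30.3% were higher and 21.4% and 22.8% lower, so the higher integrin genes were near the share of all genes. Itgb1 had the most UMIs of the list in Root. Among the higher genes, Itgam, the alpha chain of the complement receptor CR3, had 156 and 325 CPM, against 0.0516 and 0.0373 CPM in the remaining barcodes. Its partner Itgb2 had 139 and 151 CPM, against 0.0258 and 0.0559.

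The members expressed the genes of tissue macrophages. Over the summed UMIs of all members, Lyz2, which encodes lysozyme, had 9653 CPM in Root and 8375 in Asc-RFP, against 7.33 and 3.09 CPM in the remaining barcodes. C1qa had 6428 and 6564 CPM, against 3.15 and 1.81. Pf4, a chemokine of platelets and of resident macrophages, had 2943 and 4159 CPM, against 1.55 and 0.932. Mrc1, the mannose receptor, had 1429 and 2848 CPM, against 0.568 and 1.16. Of 19 macrophage markers, 18 were at least 2-fold higher in Root members and 19 in Asc-RFP members than in the remaining barcodes. C1qa, C1qb and C1qc of the rule are among these markers. The sums mix the 2 kinds of members. Macrophages low in muscle RNA held 7646 of the 9386 Lyz2 UMIs of Root members and 2458 of the 2688 of Asc-RFP members. Members over 1% also carried the muscle RNA given above, and they are called members by the C1q rule only. Across all genes of 50 CPM or more in either sum, 20.2% were at least 2-fold higher in Root members and 26% in Asc-RFP members, and 18.7% and 20.4% were at least 2-fold lower. Since the rule used this contrast, nothing was read from these shares.

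Per barcode, the 53 Root macrophages low in muscle RNA had from 1.85 to 283 Lyz2 UMIs per 10000 (median 122), and the 23 of Asc-RFP from 68.2 to 249.8 (median 89.8). C1qa ranged from 8.11 to 155 per 10000 in Root (median 84.2) and from 40.9 to 128 in Asc-RFP (median 80.4). The Asc-RFP range of Lyz2 lay inside that of Root, whose lowest cells had almost none. Ptprc, which encodes the pan-leukocyte protein CD45, was detected in 47 of 53 and 20 of 23, and Adgre1, which encodes F4/80, in 48 and 21.

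The 30 leading genes were ranked by how far the lower bound of the ratio lay above 1 in both libraries. Beyond the C1q genes and Lyz2 they held lectins and scavenger receptors (Mrc1, Cd163, Cd209f, Mgl2, Clec10a, Clec4a2), the folate receptor Folr2 and chemokines (Ccl6, Ccl8, Ccl12, Ccl24, Pf4). Fc receptor genes (Fcgr2b, Fcer1g), the signalling adaptor Tyrobp and the growth factor receptor Csf1r were also among them. The rest were the secreted proteins Retnla and Wfdc17, the protease Ctss and the leukocyte genes Ptprc, Cd52, Laptm5, Cybb, Tnfaip8l2, Arhgap30 and Pou2f2. Log2 ratios of all members over the remaining barcodes for these 30 ran from 10.09 to 12.66 in Root and from 10.93 to 13.65 in Asc-RFP. Csf1r, the receptor on which tissue macrophages depend, had 894 and 1324 CPM in members, against 0.723 and 0.578 CPM in the remaining barcodes. Its ligands were nearly absent: macrophages low in muscle RNA held 2 UMIs of Csf1 in Root and 0 in Asc-RFP, and no UMI of Il34.

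**Figure D2:**
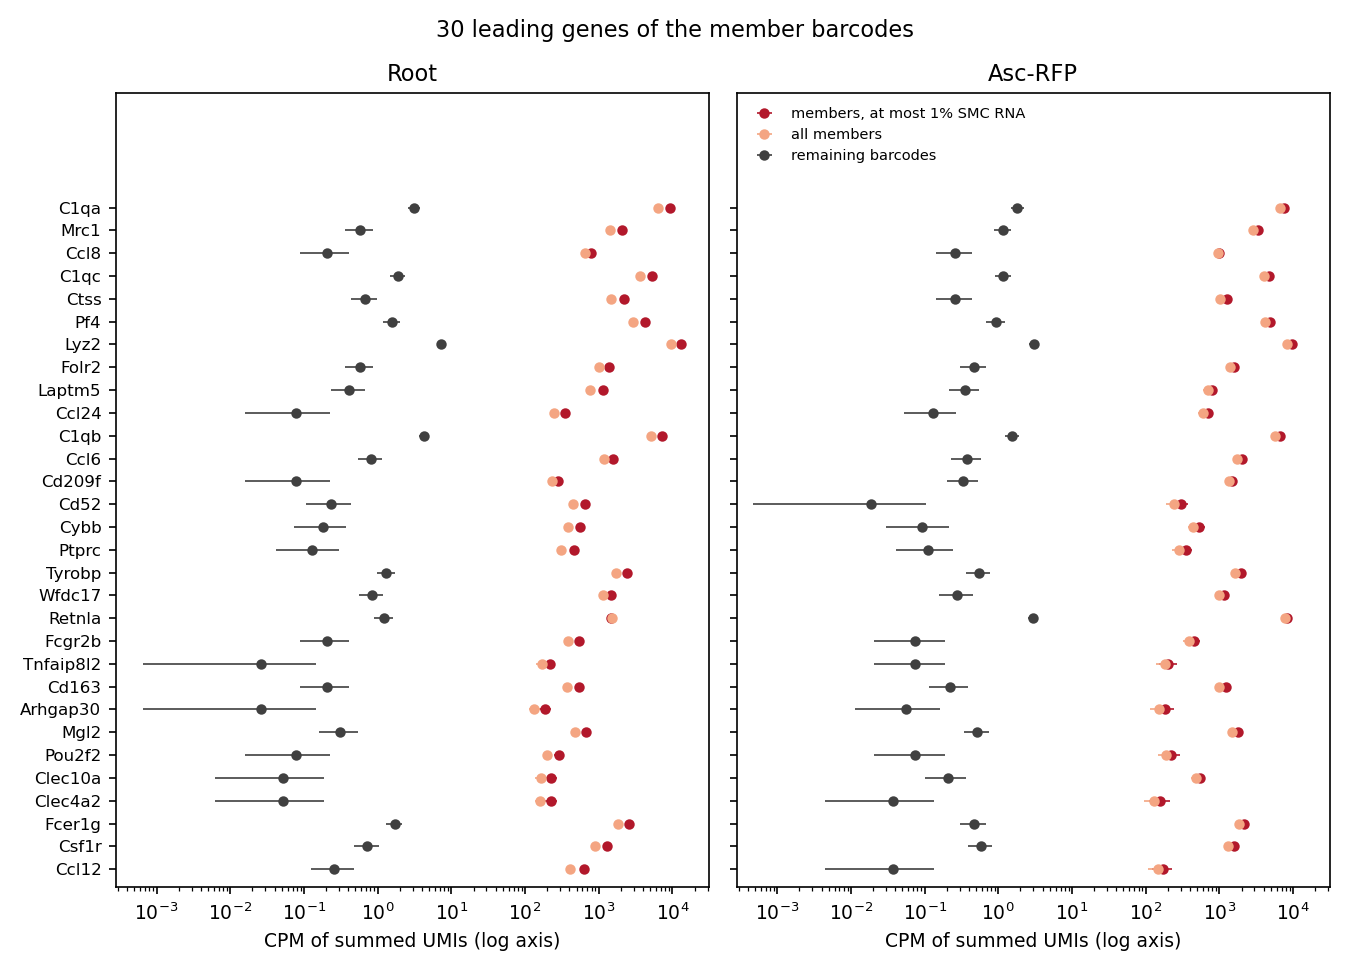
CPM (horizontal log axis) of the 30 leading genes in macrophages low in muscle RNA (dark red), all members (orange) and remaining barcodes (grey), with exact 95% Poisson intervals, in Root (left) and Asc-RFP (right). Each of the 30 lies over 100 CPM in all members and under 10 CPM in the remaining barcodes in both libraries.

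Genes of lysosomal proteases and of lipid and iron handling were high in level. Apoe, which carries lipid out of cells, had 24349.9 CPM in the Root macrophages low in muscle RNA and 14746 in those of Asc-RFP, against 623 and 168 CPM in the remaining barcodes, and every one of the 53 and 23 held it. Of 18 lysosomal genes measured (at 50 CPM or more in either sum), 17 were at least 2-fold higher in Root and 16 in Asc-RFP and none lower (0), where 27.6% and 30.3% of all genes were higher and 21.4% and 22.8% lower. The counts of the other lists against the remaining barcodes are to be read beside the same shares. Ctsc, a protease that activates granule enzymes, had 1531 and 1468 CPM, against 24.9 and 18.0. Ftl1, the ferritin light chain, had 7931 and 7113 CPM, against 426 and 380.3, while the heavy chain Fth1 had 8452 and 8204, against 9358 and 9643. The lysosome and ferritin genes were thus shared with muscle cells in part, unlike Ctss at 0.671 and 0.261 CPM there.

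The signalling genes of phagocytes were higher throughout. All 16 measured Fc receptor and adaptor genes in Root and all 15 in Asc-RFP were at least 2-fold higher in macrophages low in muscle RNA than in the remaining barcodes. Fcer1g, the common chain of activating Fc receptors, had 2614 CPM in Root and 2142 in Asc-RFP, against 1.70 and 0.466 CPM in the remaining barcodes, and was found in 52 of 53 and 23 of 23. Among 18 transcription factors, 11 of 13 measured were higher in each library and 1, Id2, was lower. Maf, which maintains macrophage identity, had 1385 CPM in Root and 2214 in Asc-RFP, against 21.9 and 18.7 CPM in the remaining barcodes. Spi1 had 446 and 421 CPM, against 0.232 and 0.0373.

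Of complement and pattern recognition genes, 13 of 15 measured were higher in Root and 16 of 17 in Asc-RFP. C1qa, C1qb and C1qc, which define the members, are among the higher genes in both counts. The receptors for the anaphylatoxins, C3ar1 and C5ar1, had 289.9 and 248 CPM in Root and 341 and 373 in Asc-RFP, against at most 0.261 CPM in the remaining barcodes of either library. All 8 measured interferon response genes were higher in each library, with Ifitm3 at 1476 and 2051 CPM, against 258 and 189. Of efferocytosis genes, by which dying cells are taken up, 8 of 14 were higher in Root and 9 of 14 in Asc-RFP, and 2 and 4 lower, where 27.6% and 30.3% of all genes were higher and 21.4% and 22.8% lower. The efferocytosis genes that were lower were thus near the share of all genes. Stab1, a scavenger receptor, had 941 and 924 CPM, against 3.49 and 1.90, while Mfge8, a bridge to dying cells that SMCs make, had 32.98 and 31.7, against 502 and 555.

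Growth factors divided, with 5 of 11 measured higher and 5 lower in each library. Igf1, a growth factor for SMCs, had 340.2 CPM in Root and 484 in Asc-RFP macrophages low in muscle RNA, against 6.33 and 1.55 CPM in the remaining barcodes. Tgfb2 ran the other way, with 6.94 and 7.93 CPM, against 182 and 231. Matrix genes divided too: 4 of 10 were higher and 5 lower in Root, and 3 and 5 of 9 in Asc-RFP, of which the 3 of 9 were near the 30.3% of all genes that were higher there. Sparc, a matrix protein, had 32.98 and 95.2 CPM, against 1674 and 2189. Cst3, the protease inhibitor cystatin C, had 5637 and 5014 CPM, against 3326 and 2807.

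All 9 measured MHC class II genes and all 9 of alternative activation were higher in each library, as were 11 of 11 chemokine and cytokine genes in Root and 9 of 9 in Asc-RFP. Genes of lipid-laden or TREM2-type macrophages were mixed, with 9 of 14 measured higher in Root and 8 of 14 in Asc-RFP, and 2 lower in each. Trem2, a lipid receptor, had 212 and 123 CPM in macrophages low in muscle RNA, against 0.336 and 0.186 in the remaining barcodes. Gpnmb had no UMI in either library, and Spp1, which encodes osteopontin, had 0 UMIs in Root and 2 in Asc-RFP. Marco and Arg1 had no UMI in the members of either library, Il6 and Ccl5 likewise, and macrophages low in muscle RNA held 0 UMIs of Tnf in Root and 3 in Asc-RFP. At these depths, 3 UMIs over the macrophages low in muscle RNA correspond to 5.21 CPM in Root and 11.9 CPM in Asc-RFP.

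Most markers of other blood and wall cells were at or near 0 in the macrophages low in muscle RNA. All 6 NK cell, all 6 mast cell and all 5 mesothelial markers stood at 0 UMIs in both libraries. So did 8 of 10 endothelial markers, Pecam1 and Cdh5 among them, 6 of 7 neutrophil markers, Cd3e, Cd3g, Trac and Trbc2 of the T cell list, Cd79a, Ms4a1 and Pax5 of the B cell list, Xcr1, Clec9a, Flt3 and Ccr7 of the dendritic cell list, and Ly6c2, Plac8, Chil3 and Hp of the monocyte list. Other genes of these lists were present. The monocyte list summed to 2514 CPM in Root and 3701 in Asc-RFP, against 2.12 and 2.03 in the remaining barcodes, and its 2 measured genes, F13a1 and Ccr2, were higher in each library. F13a1, a transglutaminase that resident macrophages also make, had 2401 and 3574 CPM and was detected in 43 of 53 and 23 of 23. The dendritic cell list summed to 122 and 139 CPM, against 4.08 and 4.38, with Batf3, a transcription factor, measured and higher in both libraries at 67.7 and 55.5 CPM and Siglech in Asc-RFP alone, at 38.2 and 51.6 CPM. Ighm was the measured gene of the B cell list, at 283 CPM in Root and 413 in Asc-RFP, against 0.284 and 0.186 in the remaining barcodes, and it was detected in 43 of 53 and 21 of 23. Cd4, a T cell marker that mouse macrophages can carry, was found in 8 of the 53 Root and 0 of the 23 Asc-RFP cells. The fibroblast genes Col1a2 and Col1a1 had 22.6 and 8.68 CPM in Root and 31.7 and 23.8 in Asc-RFP, against 919 and 355 in the remaining Root and 1181 and 469 in the remaining Asc-RFP barcodes.

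Subsets were described by the share of barcodes with at least 1 UMI of a gene after thinning each to 2000 UMIs, which left out 2 of 53 Root and 1 of 23 Asc-RFP macrophages low in muscle RNA. Lyve1, the hyaluronan receptor of resident adventitial macrophages, was found in 58.8% (44.2 to 72.4) in Root and 86.4% (65.1 to 97.1) in Asc-RFP. Folr2 was found in 66.7% (52.1 to 79.2) and 81.8% (59.7 to 94.8), and Timd4, a phosphatidylserine receptor, in 29.4% (17.5 to 43.8) and 31.8% (13.9 to 54.9). The same shares in the remaining barcodes were at most 0.210% for these 3 genes in Root and 0.356% in Asc-RFP. Unthinned, the macrophages held them in 64.2%, 77.4% and 56.6% in Root and 82.6%, 91.3% and 65.2% in Asc-RFP. The intervals of the libraries overlapped for all 3. Over all members, 9 of 96 in Root and 18 of 50 in Asc-RFP were left out as too shallow. Lyve1 was then found in 41.4% (30.9 to 52.4) in Root and 75% (56.6 to 88.5) in Asc-RFP. These intervals did not overlap, but they cover counting error within 1 library each. The sets also differed in make-up, since 51 of 87 Root and 22 of 32 Asc-RFP barcodes were low in muscle RNA. No difference between the libraries was read from them.

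Genes of MHC class II, which presents antigen to T helper cells, were carried by about the same share in both libraries. H2-Aa was found in 54.9% (40.3 to 68.9) of the Root and 50% (28.2 to 71.8) of the Asc-RFP macrophages low in muscle RNA after thinning, and H2-Ab1 in 58.8% (44.2 to 72.4) and 59.1% (36.4 to 79.3). Of 51 thinned Root cells, 20 held both an MHC class II and a resident gene (Lyve1, Folr2 or Timd4), 16 a resident gene alone, 12 MHC class II alone and 3 neither. Of 22 thinned Asc-RFP cells the numbers were 12, 7, 3 and 0. The level was uneven. H2-Aa, H2-Ab1 and H2-Eb1 together ran from 0 to 656 UMIs per 10000 in Root (median 11.5) and from 0 to 483 in Asc-RFP (median 12.99). Among the 38 Root and 18 Asc-RFP cells that held any such UMI, the medians were 63.0 and 15.2 per 10000. Against the summed level of Lyve1, Folr2 and Timd4, the Spearman correlation over cells was -0.49 in Root (n = 53) and -0.18 in Asc-RFP (n = 23), cells that share a library, given as a description.

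**Figure D3:**
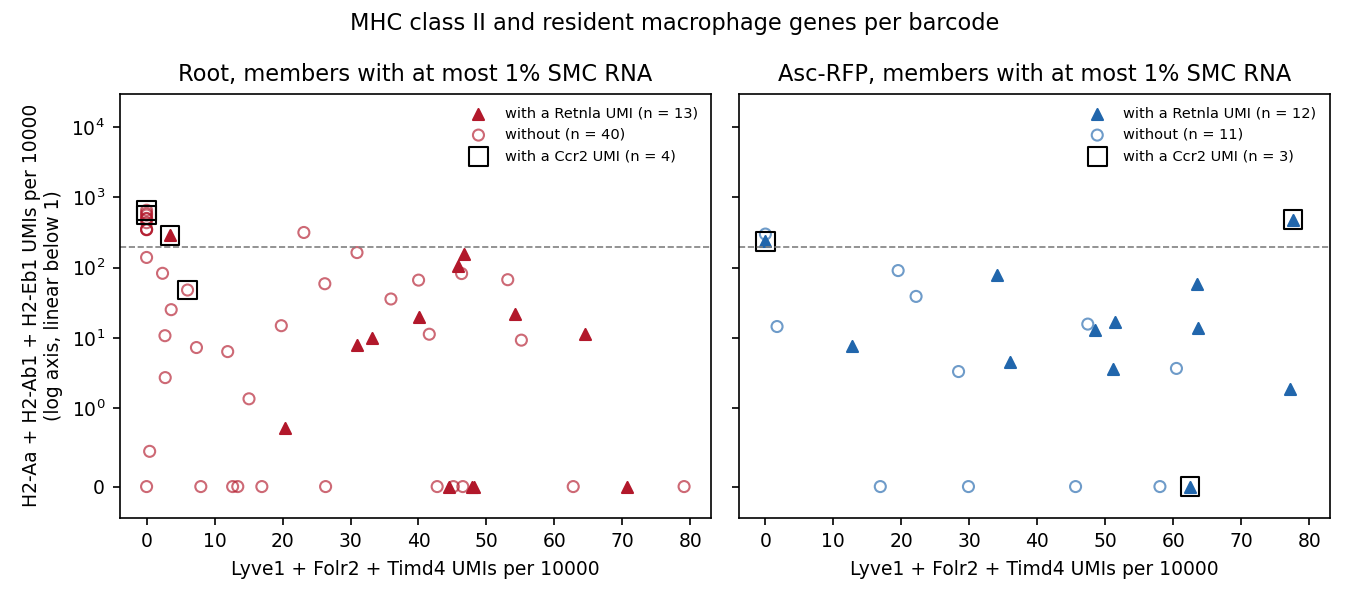
Each point is a macrophage low in muscle RNA, in Root (left, 53) or Asc-RFP (right, 23), with Lyve1, Folr2 and Timd4 UMIs per 10000 on the horizontal axis and H2-Aa, H2-Ab1 and H2-Eb1 UMIs per 10000 on the vertical axis (log, linear below 1). Filled triangles hold a Retnla UMI, black squares a Ccr2 UMI, and the dashed line is 200. In Root 11 points and in Asc-RFP 3 points lie over the line.

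A range of 14 macrophages low in muscle RNA, 11 of Root and 3 of Asc-RFP, had at least 200 MHC class II UMIs per 10000 (238 to 656, median 393), against a median of 7.34 and a highest value of 164 in the other 63. The limit was set after the values were seen, 2 of the 14 lay under 300 and 4 of the 63 lay at 100 or more. No UMI of Lyve1, Folr2 or Timd4 was found in 11 of the 14, against 2 of the 63. C1qa was alike, with medians of 77.0 and 85.8 UMIs per 10000. Lyz2, by contrast, stood under 10 UMIs per 10000 in 4 of the 14 (1.85 to 4.70), against 1 of the 63 (8.75). Those 4 cells thus held C1q and MHC class II RNA with little lysozyme RNA, although the median of the 14, 89.8 Lyz2 UMIs per 10000, was near the 112 of the other 63. Ccr2, the receptor for CCL2 on monocytes, had 624 CPM in the 14 and 29.3 CPM in the other 63. It was found in only 5 of the 14, and of its 76 UMIs there a Root cell held 41 and an Asc-RFP cell 27. Gngt2, a G protein subunit, had 361 CPM in the 14 and 22.3 CPM in the other 63, and Runx3, a transcription factor of leukocytes, had 213 CPM in the 14 and 39.1 CPM in the other 63. The resident genes F13a1, Pf4 and Maf ran the other way, F13a1 with 525 CPM in the 14 and 3138 CPM in the other 63, Pf4 with 1165 CPM in the 14 and 4997 CPM in the other 63 and Maf with 451 CPM in the 14 and 1829 CPM in the other 63. Vsig4, a complement receptor of resident macrophages, had 0 UMIs in the 14 and 139 UMIs (194 CPM) in the other 63. All of these come from the cells that the range was drawn on, mostly of Root, and were given no test.

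Ccr2 was rare. It was found in 4 of 53 Root and 3 of 23 Asc-RFP macrophages low in muscle RNA, with 65 and 32 UMIs, and in 5.88% (1.23 to 16.2) and 13.6% (2.91 to 34.9) after thinning. The 4 Root cells held 41, 20, 3 and 1 Ccr2 UMIs and the 3 Asc-RFP cells 27, 4 and 1, so a single cell carried 63.1% of the Ccr2 UMIs in Root and 84.4% in Asc-RFP. The cell with the most Ccr2 UMIs in each library also carried Lyz1, 71 UMIs in Root and 49 in Asc-RFP, and Retnla, 190 UMIs in Root and 912 in Asc-RFP. Of the monocyte list, F13a1 was carried by most of all macrophages low in muscle RNA, as given above, and Ly6c2, Plac8, Chil3 and Hp stood at 0 UMIs in those of both libraries. The 10 proliferation markers summed to 436 CPM in Root and 504 in Asc-RFP macrophages low in muscle RNA, against 237 and 291 in the remaining barcodes. Of the 3 measured, Tubb5, Hmgb2 and Pcna, 1 was at least 2-fold higher in Root and 2 in Asc-RFP, and none (0) was lower. Of all genes, 27.6% and 30.3% were higher, so the 1 of 3 in Root was near the share of all genes. With only 3 genes measured, nothing was read from these counts. Hmgb2, a chromatin protein, had 116 and 103 CPM, against 24.1 and 26.2, and Tubb5, a tubulin that other cells make too, 222 and 246, against 169 and 214. At least 5 UMIs of the list stood in 27 of 53 and 9 of 23 cells. Mki67, which marks dividing cells, was found in 2 of 53 Root and 1 of 23 Asc-RFP macrophages low in muscle RNA. After thinning it was found in 0 of 51 and 0 of 22, and 3 counts of these totals limit the share of cells with a UMI, not of cells expressing the gene, to 5.88% and 13.6%. Of these macrophages, a single Asc-RFP cell held 28 UMIs of the 10 proliferation markers among its 15303, with 3 each of Mki67 and Top2a. Asc-RFP members over 1% muscle RNA carried such RNA too. One of them held 16 UMIs of the markers among 2482, with 3 of Top2a and 1 of Mki67. Another held 11 among 2073, with 1 of Mki67. Over all members Mki67 was found in 3 of 50 in Asc-RFP.

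Leiden clustering of the 77 macrophages low in muscle RNA gave 4 clusters, described by number since a cluster mostly of 1 library may be that library. Cluster 1 (27 cells, 24 of Root and 3 of Asc-RFP) was led by Tmem119, Gngt2, Mmp12, Ccl4, Ear2 and Ccr2. Most of these genes were found in few cells. Of all 53 Root macrophages low in muscle RNA, Gngt2 was in 15, Tmem119 in 7, Mmp12 and Ccl4 in 5 each and Ccr2 in 4. Of the 23 of Asc-RFP, Ccr2 was in 3 and Ear2 in 1. They therefore describe a part of the cluster only. Cluster 2 (25 cells, 8 of Root, 16 of Asc-RFP and the Asc-GFP member) was led by the C-type lectin genes Cd209f, Cd209g and Clec10a, by Ednrb, the endothelin receptor, and by Fcna, the ficolin A gene. Cluster 3 (13 cells, 9 of Root and 4 of Asc-RFP) was led by Ahr, Apoe and Clec4n. Cluster 4 (12 cells, all of Root) was led by Ccl2, Cdkn1a, Ephx1, S100a6 and S100a4, with the stress genes Hspa1a, Dusp1 and Zfp36 among its first 13. No cluster was given a cell type name.

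Retnla and the lectin genes Cd209d, Cd209f, Cd209g, Mgl2 and Clec10a were lower in Root than in Asc-RFP macrophages. Retnla, a secreted protein of macrophages exposed to type 2 cytokines (chr16:48842551-48844461, mm10), had 1484 CPM in the Root macrophages low in muscle RNA and 8406 CPM in those of Asc-RFP, a log2 ratio of -2.50 (95% interval -2.62 to -2.39). It was detected in 13 of 53 Root cells (highest 164 UMIs per 10000) and 12 of 23 Asc-RFP cells (highest 609), with medians of 0 and 0.480, so the groups overlapped and the level rested on few cells. The single highest Asc-RFP cell held 912 of 2119 Retnla UMIs, and without the highest cell of each library the log2 ratio was -2.11 (-2.25 to -1.97). Over all members Retnla had 1530.3 and 7789 CPM and was detected in 22 of 96 Root and 32 of 50 Asc-RFP barcodes. After thinning, 25.5% (14.3 to 39.6) of Root and 45.5% (24.4 to 67.8) of Asc-RFP macrophages low in muscle RNA held it, against 0.175% and 0.660% of the remaining barcodes.

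Cd209f, a lectin of the DC-SIGN family, had 281 CPM in Root and 1468 in Asc-RFP, a log2 ratio of -2.38 (95% interval -2.66 to -2.11), and was detected in 9 of 53 and 13 of 23. Cd209g had 93.7 and 555 CPM, with 10 and 11 cells. Cd209d had 5.21 and 79.3 CPM, on 3 UMIs in Root. These lectin genes are close copies that lie together on chromosome 8 (Cd209f at chr8:4102787-4105835 and Cd209g at chr8:4134098-4137707), and the sources used here do not state the treatment of reads shared between copies. Mgl2 and Clec10a, the 2 galactose-type lectins of macrophages, had 674 and 226 CPM in Root, against 1773 and 539.5 in Asc-RFP. Not all lectin genes differed so. Mrc1 had 2079.6 and 3332 CPM, a log2 ratio of -0.68 (95% interval -0.81 to -0.55), and Clec4a2, an inhibitory C-type lectin receptor, ran the other way, with 226 and 155 CPM, a log2 ratio of 0.54 (95% interval 0.02 to 1.10). Cd163, the haemoglobin scavenger receptor, had 543 and 1214 CPM, a log2 ratio of -1.16 (95% interval -1.39 to -0.93). Fcna and the protease gene Mmp9 were lower in Root by log2 ratios of -1.34 (95% interval -1.69 to -0.99) and -1.99 (95% interval -2.73 to -1.28). Mgl2 was detected in 43 of 53 and 23 of 23 cells, so its difference was not carried by a few cells as that of Retnla was. Ear2 was found in a single Asc-RFP cell, with 30 UMIs.

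Of the resident genes, Lyve1, Folr2 and Pf4 differed by less than 2-fold. Lyve1 had 1328 CPM in Root and 2364 in Asc-RFP, a log2 ratio of -0.83 (95% interval -0.99 to -0.68), and Folr2 had 1373 and 1599 CPM, a log2 ratio of -0.22 (95% interval -0.39 to -0.04). Pf4 differed by -0.23 (95% interval -0.33 to -0.13). Vsig4 ran the other way, with 212 CPM in Root and 51.6 in Asc-RFP, a log2 ratio of 2.04 (95% interval 1.21 to 2.99), in 13 of 53 and 3 of 23 cells. Of the 18 genes of the resident list, 5 were at least 2-fold lower in Root and 1 higher, with a median log2 ratio of -0.62. Of 10 measured genes of alternative activation, 6 were lower and 1, Socs3, was higher, with a median of -1.08. Across all 3662 genes measured, 152 (4.15%) were at least 2-fold higher in Root and 146 (3.99%) lower, with a median of -0.07. Scaled by TMM, a shift of -0.10 in log2, the split was 186 higher and 104 lower, and by the median of ratios, a shift of -0.11, it was 194 and 100.

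Immediate-early and stress genes were higher in Root macrophages. Fos, a subunit of the AP-1 transcription factor, had 491 CPM in Root and 67.4 in Asc-RFP macrophages low in muscle RNA, a log2 ratio of 2.86 (95% interval 2.16 to 3.66), and was detected in 42 of 53 and 8 of 23. Per 10000 UMIs it ran from 0 to 15.5 in Root (median 2.74) and from 0 to 4.23 in Asc-RFP (median 0). Jun, its partner, had 771 and 175 CPM, a log2 ratio of 2.14 (95% interval 1.69 to 2.62). Hspa1a, a heat shock protein, had 358 and 35.7 CPM, and Egr1 115 and 7.93, the last on 2 UMIs. Of 21 measured genes of the list, 17 were at least 2-fold higher in Root and none lower (0), with a median log2 ratio of 1.78. Across all genes measured, 4.15% were higher in Root and 3.99% lower, with a median of -0.07. In the remaining barcodes, mostly muscle, Fos had 113 CPM in Root and 125 in Asc-RFP, Jun 847 and 542, Egr1 88.1 and 84.1, and Hspa1a 882 and 583. The gap between the libraries was wider in macrophages than in the remaining barcodes for each of these 4 genes. Fos, Jun and Hspa1a are, however, among the genes picked for the highest Root ratio in these macrophages, and Egr1 had 2 Asc-RFP UMIs. That choice favours a wider gap in macrophages, and the other genes of the list are not compared here. Nothing was therefore read from it for the list, and the cause of the gap was not tested. Genes of this list are known to respond to tissue digestion as well as to stimuli in the tissue.

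Chemokine and cytokine genes divided between the libraries. Of 11 measured, 4 were at least 2-fold higher in Root (Ccl2, Ccl4, Ccl12 and Cxcl16), 1 was lower and 6 were within 2-fold, with a median log2 ratio of -0.23. Of all genes measured, 4.15% were higher and 3.99% lower, with a median of -0.07. Ccl24, an eosinophil chemokine, was the lower one, with 351 CPM in Root and 702 in Asc-RFP, a ratio at the 2-fold limit (95% interval of the log2 ratio -1.30 to -0.70). Cx3cr1, the fractalkine receptor, had 476 CPM in Root and 79.3 in Asc-RFP, a log2 ratio of 2.58 (95% interval 1.93 to 3.32), in 27 of 53 and 6 of 23 cells. Cxcl16, a membrane-bound chemokine, had 318 and 75.4 CPM, in 48 and 11 cells, and Ccl12, a monocyte chemokine, 639 and 171. Rgs1, Gngt2 and Vcam1 had 63, 60 and 50 UMIs in Root and none (0) in Asc-RFP, at least 9.19-fold, 8.75-fold and 7.29-fold higher against a floor of 3 UMIs over the Asc-RFP sum. Tmem119, Olfml3, Mmp12 and Ccl4 likewise had 45, 35, 34 and 33 UMIs in Root and 0 in Asc-RFP, at least 6.56-fold, 5.11-fold, 4.96-fold and 4.81-fold higher. Several of these rested on few cells: 60% of the Tmem119 UMIs and 52.9% of the Mmp12 UMIs came from a single cell, with 7 and 5 cells positive. For Ccl4, a single cell held 48.5% of the Root UMIs, with 5 cells positive. For Ccl12, a single cell held 29.6% of the UMIs in Root and 46.5% in Asc-RFP. Without the highest cell of each library the log2 ratio of Ccl12 was 2.24 (95% interval 1.62 to 2.93). H2-Aa had 3408 CPM in Root and 1702 in Asc-RFP, and Cd74, the invariant chain, 11292 and 6133, with 11 of 53 and 3 of 23 cells in the range of high MHC class II.

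**Figure D4:**
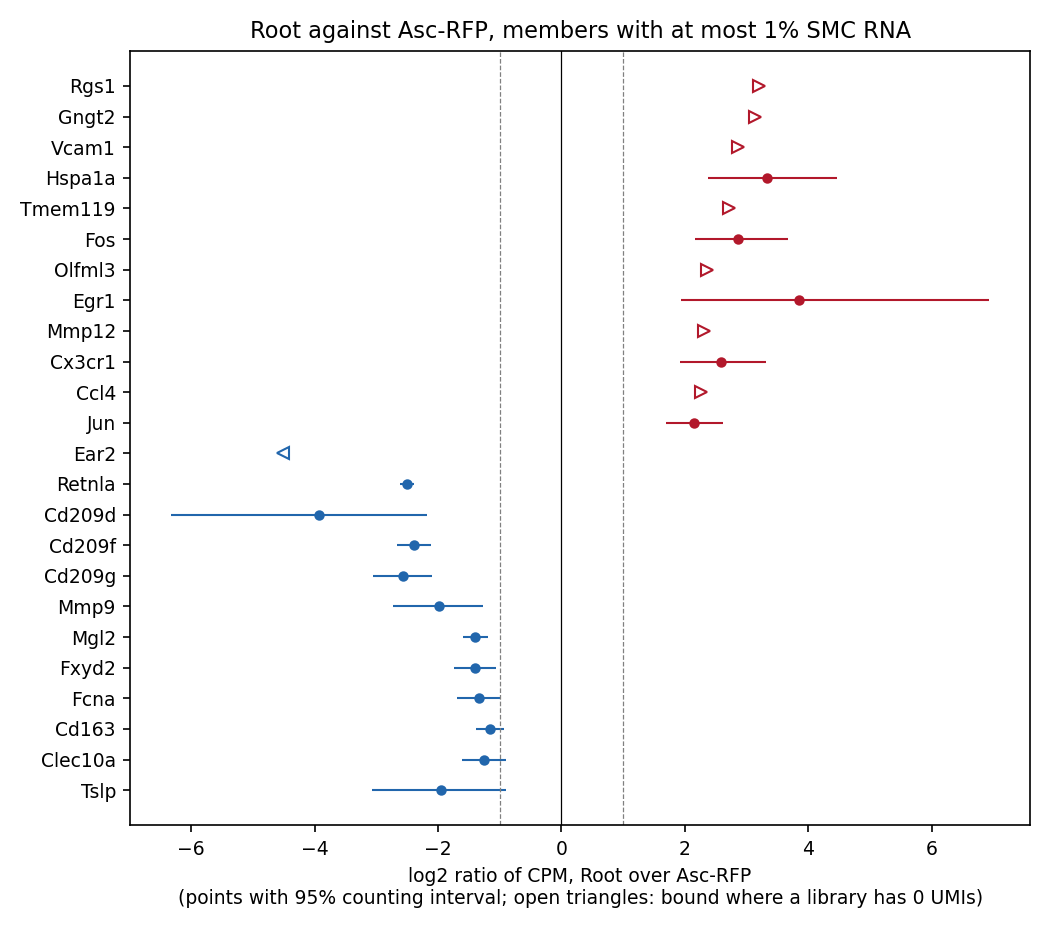
Log2 ratio of CPM, Root over Asc-RFP, of the 12 highest and 12 lowest genes by the interval bound nearest 0 in macrophages low in muscle RNA (53 and 23 cells). Points carry exact 95% counting intervals, open triangles are bounds against 3 UMIs where a library had 0, and dashed lines mark 2-fold. Retnla and 3 Cd209 genes lie left of -2, and Fos, Hspa1a and Jun right of 2.

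Over all members the list of genes higher in Root was different in kind. Of all 3562 genes measured, 151 (4.24%) were at least 2-fold higher and 155 (4.35%) lower in Root. Scaled by TMM the split was 210 higher and 82 lower, and by the median of ratios 199 and 93. Among the 12 highest stood muscle genes, such as Myl9 (3029.8 CPM in Root and 773 in Asc-RFP), Mustn1 (394 and 49.8), Tnnt2 (264 and 46.7) and Des (203 and 34.3). In the macrophages low in muscle RNA Myl9 had 167 and 226 CPM, Mustn1 19.1 and 23.8 and Des 10.4 and 15.9, all with ratios under 1. There 1 UMI is 1.74 CPM in Root and 3.97 CPM in Asc-RFP, so Mustn1 and Des rested on few UMIs and no direction was read for them. Tnnt2 had 17.4 and 11.9 CPM there, on 10 and 3 UMIs, a log2 ratio of 0.54 (95% interval -1.41 to 3.04). The lower genes were largely the same in both sets: Ear2, Cd209d, Cd209g, Cd209f, Retnla, Mmp9, Fxyd2, Mgl2, Fcna and Tslp stood among the 12 lowest in each.

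The reporters were not used by the rule. In the 53 Root macrophages low in muscle RNA, eGFP had 39.9 CPM (25.3 to 59.9) and tdTomato 214 CPM (177 to 255), against 810.3 CPM (801 to 819) and 323 CPM (318 to 329) in the remaining Root barcodes. Per barcode they held from 0 to 4 eGFP UMIs, with 16 of 53 positive, and from 0 to 7 tdTomato UMIs, with 35 of 53 positive. None of them (0) reached 8 eGFP UMIs, where 607 of 2873 remaining barcodes did. The level of eGFP was thus near that of endothelial barcodes, 41.7 CPM (23.9 to 67.8), in which tdTomato had 764 CPM (679 to 857). Per 1000 Acta2 UMIs, eGFP had 62.3 UMIs in the macrophages, 35.4 in endothelial and 42.8 in remaining barcodes, and tdTomato 333, 648 and 17.1. In Asc-RFP eGFP had 6.76, 8.67 and 0.664 per 1000 Acta2 UMIs in the same sets, on 2, 6 and 882 eGFP UMIs, and tdTomato 152, 98.3 and 17.4. The ratio of eGFP to Acta2 RNA thus lay within a factor of 2 across the sets in Root, and in Asc-RFP it was lowest in the remaining barcodes.

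Root members over 1% muscle RNA differed, with 717 CPM (636 to 805) of eGFP and 341 CPM (286 to 403) of tdTomato. Of the 307 eGFP UMIs in all Root members, 284 lay in these 43, and 176 in the deepest 2, which held 55274 UMIs with 91 of eGFP and 58198 UMIs with 85 of eGFP, 57 to 74 C1q UMIs and 7.07 to 7.30% SMC markers. Without these 2, the other 41 had 382 CPM (313 to 461) of eGFP and 354 CPM (288 to 430.1) of tdTomato, an eGFP level under that of the remaining Root barcodes. Without them, eGFP over all Root members was 153 CPM, against 316 with them. In Asc-RFP, macrophages low in muscle RNA had 7.93 CPM (0.961 to 28.7) of eGFP, on 2 UMIs, and 179 CPM (130.2 to 239) of tdTomato, against 16.4 CPM (15.4 to 17.6) and 429.6 CPM (424 to 435) in the remaining barcodes. In both libraries the CPM of tdTomato was therefore lower in the macrophages than in the remaining barcodes.

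**Figure D5:**
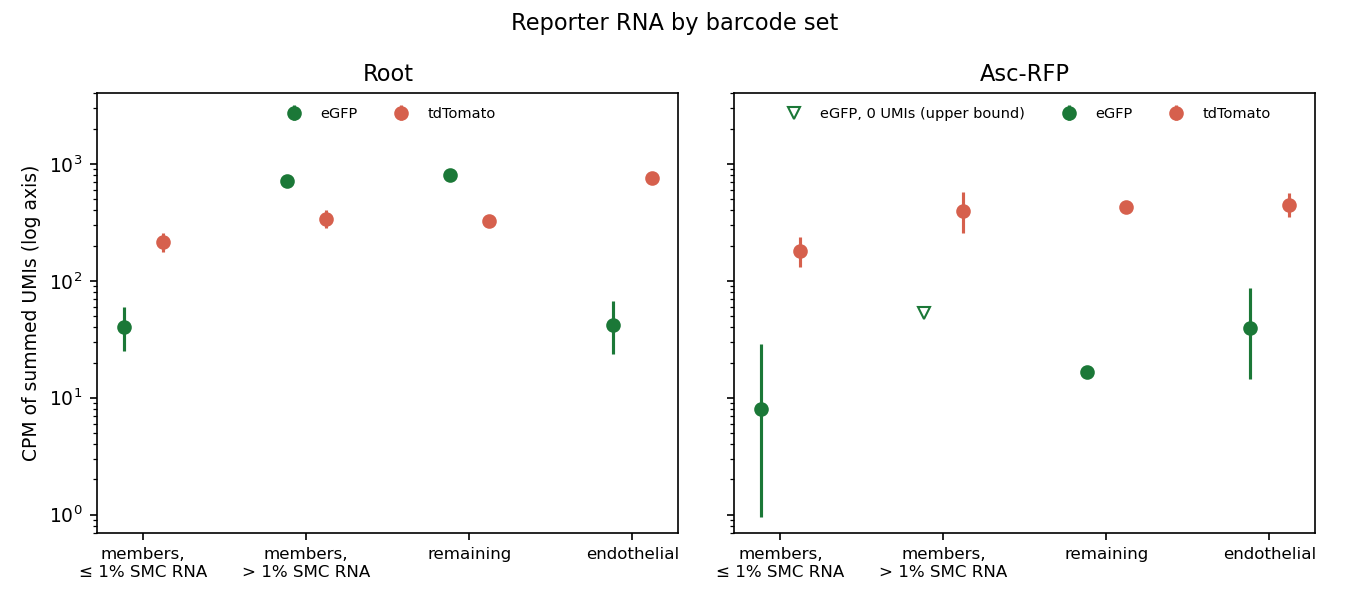
CPM (vertical log axis) of eGFP (green) and tdTomato (orange) with exact 95% Poisson intervals, in members with at most and over 1% muscle RNA, remaining and endothelial barcodes of Root (left) and Asc-RFP (right). The open triangle is an upper bound where no UMI was found. In Root, eGFP is at 39.9 CPM in members with at most 1% and at 717 CPM in those over 1%.

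The GFP-sorted libraries each held a single member, and these were unlike. The Asc-GFP member had 9800 UMIs, 238 of them C1q, 96 Lyz2 and 75 Retnla, with 0.286% SMC markers. It had 3 eGFP UMIs and 0 of tdTomato, where the remaining Asc-GFP barcodes held a median of 44 eGFP UMIs. The Arch-GFP member had 31460 UMIs, of which 15 were C1q, 3 Lyz2, 40 of H2-Aa, H2-Ab1 and H2-Eb1 together and 38 Cd74, with 6.12% SMC markers and 91 eGFP UMIs, against a median of 44 eGFP UMIs in the remaining Arch-GFP barcodes. The Arch-GFP member thus held MHC class II as well as muscle RNA, with little C1q and Lyz2 RNA for its depth, and it is called a member by the C1q rule only.

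Both sexes contributed. Among barcodes with UMIs of Xist alone or of Y-linked genes alone, those with Xist made up 23 of 42 (54.8%, 38.7 to 70.2%) of the Root macrophages low in muscle RNA, against 2369 of 2683 (88.3%, 87.0 to 89.5%) of the remaining Root barcodes, and the intervals did not overlap. In endothelial barcodes of Root the count was 23 of 31 (74.2%, 55.4 to 88.1%), and in the Root members over 1% muscle RNA 22 of 24 (91.7%, 73.0 to 99.0%). In Asc-RFP it was 8 of 14 (57.1%, 28.9 to 82.3%) of macrophages low in muscle RNA, against 1865 of 3426 (54.4%, 52.8 to 56.1%) of the remaining barcodes, where the intervals overlapped. Neither kind of UMI was found in 11 of the 53 Root macrophages and 135 of the 2873 remaining barcodes. Where Xist was present, its median was 12 UMIs in those macrophages and 7 in the remaining barcodes. The share of barcodes with Xist was thus lower in the Root macrophages than in the remaining barcodes of that library.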

How the data were processed

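The 4 libraries were made from sorted single cells of the aorta with the 10x 3′ chemistry v3.1, per the labels. The authors deposited raw UMI counts, and Cell Ranger 7.0.0 produced them, per the file headers. The genome mm10 and Seurat 4.3 are named in the submitters' processing notes, and no Seurat output was used. Per the labels, the authors kept 1841 Root cells, 2450 of Asc-RFP, 4050 of Asc-GFP and 4710 of Arch-GFP, beside 4040, 6539, 8845 and 10506 barcodes in the files. The sources used here do not state whether counting used strand.

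Members and remaining barcodes were taken by the stated rule, UMIs were summed per set and divided by the set's total (CPM), and ratios were given exact conditional binomial intervals, levels exact Poisson intervals and shares exact binomial intervals, at 95%. With 1 library per group there was no test, and no p-value was computed. Genes with at least 50 CPM in either sum were counted at a 2-fold limit. That level is 28.8 UMIs in the 576060 UMIs of the Root macrophages low in muscle RNA and 12.6 in the 252075 of Asc-RFP. Named genes were the 30 leading genes, the 12 highest and 12 lowest between Root and Asc-RFP (without mitochondrial, ribosomal, sex-linked and reporter genes), up to 6 per list by CPM in Root, list members at 0, and the rule's own markers. Other genes named, among them Cxcl16, Itgam, Igf1, Cd4 and those of the MHC class II range, were chosen after their values were seen. The members and lists were chosen with earlier results of these data known. No doublet caller was run. UMIs of both Xist and Y-linked genes stood in 2 of 96 Root and 0 of 50 Asc-RFP members, and free RNA was not removed. Clustering used scanpy 1.11.5 with 1000 variable genes, 10 principal components, 10 neighbours and a resolution of 0.5. The ratio code was tested on simulated data with known fold changes. Positions come from GENCODE M21 (mm10), to which 32158 of 32287 features were matched. Clec7a and Mx1 were not analysed here, and some other list members are not reported here.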

Additional observations from a re-analysis of the deposited data

Results flagged for a closer look

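Both libraries sorted for GFP, which enter no comparison between libraries, held a single member each. The Asc-GFP member, which is among the 77 macrophages low in muscle RNA, held 238 C1q UMIs, where the remaining 6407 barcodes of that library with at least 1000 genes had at most 1, found in 12 of them, and a shallower barcode held 9. The Arch-GFP member held 15, where the remaining 8030 had at most 1, found in 3 of them, and it carried muscle RNA at 6.12% of its UMIs.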

How the results depend on the processing

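No paired analysis was possible because each group is 1 library and no result comes from a test. Of the values and counts for comparisons, 210 stayed within their 95% counting interval, or within 1.5 times for a count, under an alternative and 68 did not. Of the ratios of named genes, 912 stayed within their interval, 192 moved and 8 that were at least 2-fold in the main setting changed sign. Sign changes of smaller ratios were not counted apart. Genes at 0 in a library, 7 in all, have no ratio and are left out. All 780 ratios of leading genes kept their sign. The limit of 1% muscle RNA and the removal of the 2 deepest members were chosen after seeing the data. The cause of each change was not tested beyond the alternative's own construction.

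With at least 5 C1q UMIs the member share in Asc-RFP was 1.36%, the muscle RNA 1.67% in Root and 1.15% in Asc-RFP, and the H2-Aa share in Asc-RFP 26.3%. With at least 20 the member shares were 1.88% in Root and 0.537% in Asc-RFP, the muscle RNA 1.11% and 0.596%, eGFP in Root 270.2 CPM, and in Root Trem2 was found in 33.3%, H2-Aa in 55.6%, H2-Ab1 in 49.2% and H2-Eb1 in 47.6%. With at least 1000 genes the Asc-RFP member share was 0.621% and its muscle RNA 0.759%. With at most 5% mitochondrial UMIs the member shares were 4.52% in Root and 1.19% in Asc-RFP, the muscle RNA 1.46% and 0.437%, and 247 genes were higher in Root than in Asc-RFP. Over barcodes, the median share of muscle RNA was 0.168% in Root and 1.64% in Asc-RFP, the reverse order of the sums.

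Scaling by TMM (shift -0.14 in log2) or median of ratios (-0.12) left 82 and 93 genes lower in Root than in Asc-RFP, against 155, and the mean over barcodes gave 360. With no minimum on CPM the counts against the remaining barcodes were 3123 higher and 7779 lower in Root, 3289 and 9350 in Asc-RFP, and 3132 and 1926 between Root and Asc-RFP. At 200 CPM they were 193 and 208, 266 and 259, and 47 and 22. Without genes higher in the remaining barcodes, 22 genes were higher in Root.

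Without members over 3% muscle RNA, eGFP in Root was 38.9 CPM and tdTomato 219. The log2 ratios of Root over Asc-RFP then turned to -0.0082 for Mustn1, -0.33 for Myl9, -0.031 for Gm13889 and -0.72 for Des. Without those over 1% they turned to -0.32 for Mustn1, -0.44 for Myl9, -1.19 for Fabp4 and -0.61 for Des, on few UMIs for all but Myl9. Member shares were then 1.54% in Root and 0.386% in Asc-RFP, 1128 genes were higher in Root members than in remaining barcodes, eGFP in Root was 39.9 CPM and tdTomato 214, the Root female share 54.8%, and the Root shares 58.8% for Lyve1, 29.4% for Timd4, 31.4% for Trem2, 54.9% for H2-Aa, 58.8% for H2-Ab1 and 54.9% for H2-Eb1. With the median of ratios as well, 100 genes were lower in Root than in Asc-RFP. Mki67 in Asc-RFP was 0%, against 3.13% (1 cell). Without the 2 deepest Root members, eGFP was 153 CPM, muscle RNA 1.14% and 103 genes were lower in Root than in Asc-RFP.

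Thinned to 1000 UMIs, Folr2 in Root was 42.1%, and in Asc-RFP Lyve1 was 51.0%, Timd4 10.2%, Trem2 8.16% and H2-Eb1 22.4%. With no thinning, Root shares were 72.9% for Folr2, 37.5% for Timd4, 42.7% for Trem2, 54.2% for H2-Aa and 53.1% for H2-Ab1, and Retnla in Asc-RFP 64%. Depth limits every value over the Asc-RFP macrophages, in which 1 UMI is 3.97 CPM.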
